A study of Homo sapiens with 9 samples.

Results

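The genes described here are 10 non-coding hosts of small nucleolar RNAs (snoRNAs): GAS5, SNHG1, SNHG5, SNHG6, SNHG8, SNHG12, SNHG15, SNHG16, ZFAS1 and EPB41L4A-AS1. They were taken from a written list of host transcripts known to respond to translation, and were matched by symbol to the Ensembl gene IDs of the count tables. The list was chosen with earlier results of these data known. All 10 were found among the 60880 gene IDs, and all 10 passed the filter on low counts. Poly-A RNA was sequenced from SNU5, an established human gastric carcinoma line. Cells were exposed for 24 h to ramucirumab, a monoclonal antibody against VEGFR2, at 8 μg/mL of antibody in every group. The NR group received the antibody on PEG-coated gold nanorods (AuNR-PEG-Ab), the SP group received it on PEG-coated gold nanospheres (AuSP-PEG-Ab), and the Ab group received the antibody alone. Each group had 3 libraries, 9 in all, and no untreated group was analysed here. The antibody is therefore common to all groups, and NR and SP share the same Ab libraries as their comparison. The 3 NR libraries held 25735410, 13863155 and 15943980 counts, the 3 SP libraries 21682836, 22914759 and 20601906, and the 3 Ab libraries 19566064, 26318227 and 21031024.

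A snoRNA host gene is transcribed and spliced, and its introns are trimmed into snoRNAs that guide chemical modification of ribosomal RNA. Box C/D snoRNAs guide methylation of the ribose, and box H/ACA snoRNAs guide pseudouridylation. The spliced exons of many such hosts reach the cytoplasm, carry short reading frames and are degraded by nonsense-mediated decay when they are translated, so that their level is known to depend on translation and on decay as well as on transcription. Many hosts also start with a run of pyrimidines, the terminal oligopyrimidine (TOP) tract that is typical of messengers for the translation machinery. RefSeq names 35 snoRNA genes in the 10 hosts, of which 28 are box C/D and 7 box H/ACA. GAS5 holds 11 of them, SNHG1 8, SNHG12 4, and SNHG16 and ZFAS1 3 each. SNHG5 holds 2, and SNHG6, SNHG8, SNHG15 and EPB41L4A-AS1 hold 1 each.

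The start sites are shown because the TOP tract is the sequence feature by which many hosts are known. RefSeq promoter sequences (GRCh38) are shown for 8 of the 10 hosts. SNHG15 had no RefSeq promoter entry, and SNHG6 is not printed and is not part of the counts below. Each line below gives 40 bases before the annotated start and 20 bases from it, 5′ to 3′ on the strand of the gene. Capitals mark the longest run of C or T within 20 bases on either side of the start, with every run of that length marked where several tie, and TATAA on either strand in the 40 bases before it.
GAS5: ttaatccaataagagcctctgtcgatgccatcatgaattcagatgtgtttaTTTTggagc
SNHG1: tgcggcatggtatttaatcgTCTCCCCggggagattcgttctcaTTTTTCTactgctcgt
SNHG5: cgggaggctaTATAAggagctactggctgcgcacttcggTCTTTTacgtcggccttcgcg
SNHG8: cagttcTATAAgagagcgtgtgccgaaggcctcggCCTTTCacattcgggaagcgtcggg
SNHG12: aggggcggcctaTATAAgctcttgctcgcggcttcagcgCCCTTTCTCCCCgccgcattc
SNHG16: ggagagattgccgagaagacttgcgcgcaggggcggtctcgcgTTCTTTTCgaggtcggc
ZFAS1: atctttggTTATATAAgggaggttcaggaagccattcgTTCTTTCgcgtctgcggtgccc
EPB41L4A-AS1: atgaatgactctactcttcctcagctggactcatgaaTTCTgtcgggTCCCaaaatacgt

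A run of at least 6 C or T letters was present in this window in 6 of the 8 hosts, against 38.8% of the 35116 promoters in the RefSeq table. A narrower search, from 5 bases before the start, was added after that result was seen, and it gave 6 of 8 hosts against 23.3% of promoters. TATAA on either strand stood in the 40 bases before the start in 4 of the 8 hosts, against 5.48% of promoters. The 8 RefSeq windows lie at chr1:173869026-173869085 (GAS5, minus strand), chr11:62855866-62855925 (SNHG1, minus), chr6:85678714-85678773 (SNHG5, minus), chr4:118278722-118278781 (SNHG8, plus), chr1:28581854-28581913 (SNHG12, minus), chr17:76557724-76557783 (SNHG16, plus), chr20:49278602-49278661 (ZFAS1, plus) and chr5:112160486-112160545 (EPB41L4A-AS1, plus) of GRCh38. The matches of letters given above are a description and do not show which start was used in SNU5 cells. GAS5 is an example of that limit, because RefSeq and GENCODE place its start at different bases. The start of the GAS5 transcript that GENCODE tags as canonical is in the window chr1:173837108-173837167 of GRCh37, on the minus strand, and it differs from the RefSeq window above.
GAS5, GENCODE start: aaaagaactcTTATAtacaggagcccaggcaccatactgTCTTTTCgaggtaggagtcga

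Before the comparisons, the label of the cells was set against marker genes. Of 5 epithelial markers, KRT8 was the most abundant, with 1846, 1881 and 1921 CPM (counts scaled to a common library total) in NR, 2020, 1924 and 1949 in SP, against 678, 642 and 653 in Ab. KRT18 was between 198 and 328 CPM in every library, and KRT19 was between 0 and 0.0717 CPM. CDH1, the epithelial cadherin, was 5.80, 5.66 and 5.48 CPM in NR, 6.13, 6.85 and 7.20 in SP, against 0.260, 0.192 and 0.436 in Ab. The fibroblast marker LUM was 38.1, 36.8 and 36.8 CPM in NR, 37.7, 38.4 and 38.7 in SP, against 0.936, 0.920 and 0.968 in Ab. The 5 fibroblast markers summed to 103 to 115 CPM in NR and SP libraries and 17.5 to 42.4 CPM in Ab libraries, with LUM or COL1A1 as the most abundant. One marker of that list, COL1A2, had values in the other direction, with 10.3, 10.7 and 1.60 CPM in the Ab libraries, 1.43, 0 and 0 CPM in those of NR and 2.24, 2.11 and 2.08 CPM in those of SP. Its log2 fold changes of -3.56 in NR and -1.81 in SP did not pass the edgeR test (adjusted p-values of 0.068 and 0.109). Both passed without Ab library 3 (adjusted p-values of 0.0306 and 8.67e-14), that of NR also with the replicate number as a block (0.0398) or all 9 libraries in one model (0.0233), and that of SP with DESeq2 (0.0263). The 3 matched endothelial markers of 4 listed summed to 20.7 to 23.9 CPM in NR and SP libraries and 3.59 to 5.13 CPM in Ab libraries, with CDH5 as the most abundant. KDR, which encodes VEGFR2, had 0 counts in 8 of 9 libraries. The 5 epithelial markers summed to 2185 to 2336 CPM in NR and SP libraries and 842 to 901 CPM in Ab libraries. PTPRC, which defines leukocytes, was at 0 in 7 of 9 libraries. Summed epithelial, fibroblast and endothelial marker levels thus differed between Ab and the nanoparticle groups, and their part in the results below was not tested. In bulk RNA, fewer cells of a type and less RNA per cell cannot be told apart.

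To ask how the nanorod conjugate compared with free antibody, NR was set against Ab. In NR, 8 of the 10 hosts were lower than in Ab, and all 8 differed by more than 2-fold. GAS5, SNHG5, SNHG1, ZFAS1 and SNHG12 were 4.33-fold to 6.40-fold lower, and SNHG15, EPB41L4A-AS1 and SNHG8 were 2.52-fold to 2.83-fold lower. SNHG6 and SNHG16 did not pass the test. A gene passed when its adjusted p did not exceed 0.05 in the quasi-likelihood test of edgeR, adjusted by Benjamini and Hochberg's method over 15009 genes. By that rule 36.4% of all genes tested were lower in NR, 36.4% were higher, and 10.3% were lower by at least 2-fold. The median log2 fold change was -1.81 over the 10 hosts and -0.01 over all genes tested. Because the hosts were chosen with earlier results of these data known, setting them beside all genes is a description and not an independent test.

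GAS5, the growth arrest-specific host of a large box C/D cluster (ENSG00000234741, chr1:173827697-173838020 of GRCh37, 12 exons in its canonical transcript), had the highest level of the 10 in every library. Its level was 198, 191 and 186 CPM in NR and 1208, 1284 and 1196 CPM in Ab. No NR library came near an Ab library, and within each group the libraries lay close together. The log2 fold change was -2.68 ± 0.05 (SE, n = 3 per group), with an edgeR adjusted p of 4.19e-27. SNHG1, which carries a cluster of box C/D snoRNAs, was 46.5, 42.8 and 40.6 CPM in NR and 216, 211 and 212 CPM in Ab. It was 4.88-fold lower, at a log2 fold change of -2.29 ± 0.05. SNHG5, the host of SNORD50A and SNORD50B, was 23.4, 23.8 and 21.9 CPM in NR and 127, 123 and 131 CPM in Ab, a 5.48-fold lower level. All 3 of these box C/D hosts were separated from Ab without overlap.

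ZFAS1, the host of the SNORD12 family that starts head to head with ZNFX1, was the second most abundant host by CPM in Ab. It was 188, 181 and 171 CPM in NR and 777, 796 and 829 CPM in Ab, which was 4.43-fold lower. SNHG12, which carries mostly box H/ACA snoRNAs, was 18.8, 17.7 and 16.8 CPM in NR and 83.0, 73.7 and 76.5 CPM in Ab, which was 4.33-fold lower. In both genes the lowest Ab library stood well above the highest NR library. The smaller differences were those of SNHG15, SNHG8 and EPB41L4A-AS1, each the host of a single box H/ACA snoRNA in RefSeq. SNHG15 was 56.2, 53.5 and 55.5 CPM in NR and 160, 158 and 153 CPM in Ab. SNHG8 was 22.3, 21.4 and 19.9 CPM in NR and 52.7, 55.2 and 53.1 CPM in Ab. EPB41L4A-AS1 was 24.9, 23.9 and 23.8 CPM in NR and 72.0, 65.2 and 67.5 CPM in Ab. Their log2 fold changes were -1.50 ± 0.05, -1.33 ± 0.07 and -1.49 ± 0.07 (SE), again with no overlap between the groups.

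The 2 hosts that did not pass the test both carry box C/D snoRNAs. SNHG16, which holds SNORD1A, SNORD1B and SNORD1C, was 49.6, 49.1 and 49.99 CPM in NR and 53.1, 52.1 and 52.7 CPM in Ab. The 3 NR libraries lay just below the 3 Ab libraries. The log2 fold change was -0.08, with a 95% confidence interval of -0.20 to 0.04 and an edgeR adjusted p of 0.204. It passed the test, at -0.18 and an adjusted p of 0.00215, after removal of trends with the length and GC content of genes. SNHG6, the host of SNORD87, was 72.5, 67.3 and 60.4 CPM in NR and 71.2, 67.3 and 74.4 CPM in Ab, and the groups overlapped. Its log2 fold change was -0.08, with a 95% confidence interval of -0.21 to 0.05 and an edgeR adjusted p of 0.259. Without NR library 1 it was -0.16, with an adjusted p of 0.0427. Groups did not overlap, with NR the lower, for 9 of the 10 hosts, and for 37.5% of all genes tested.

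**Figure D1:**
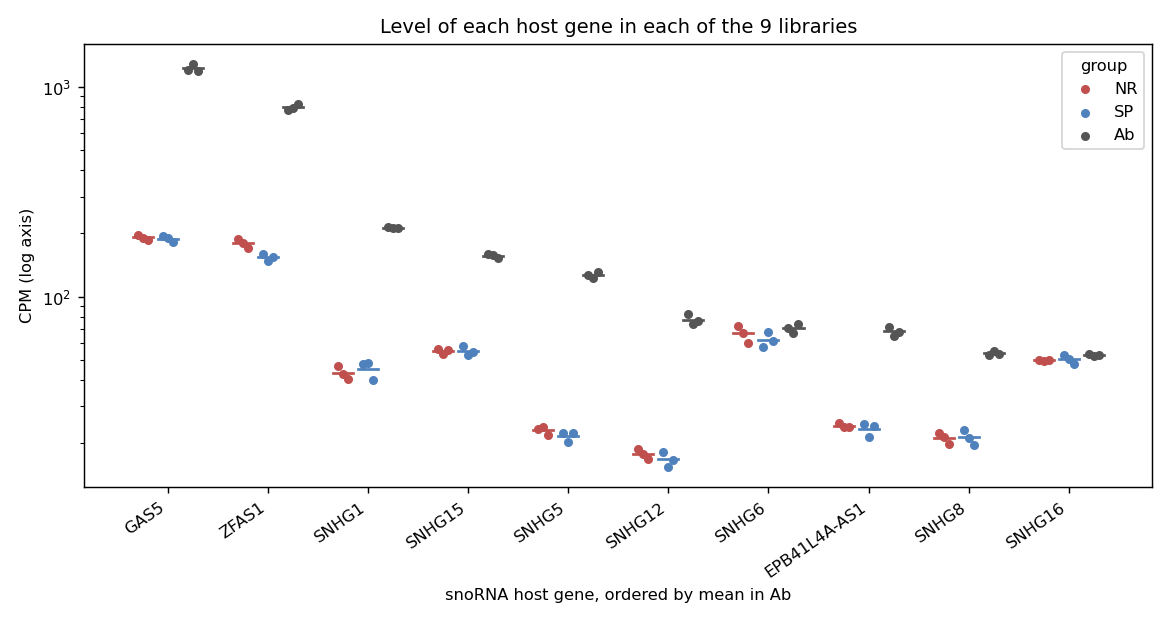
Level of each of the 10 snoRNA host genes in CPM on a log axis, with 1 point per library and a bar at the mean of each group (NR red, SP blue, Ab grey, 3 libraries each). GAS5 stands at 186 to 198 CPM in NR and 1196 to 1284 CPM in Ab, while the points of SNHG6 and SNHG16 lie at similar heights in all groups.

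To ask the same of the nanosphere conjugate, SP was set against Ab. The same 8 hosts were lower by at least 2-fold, and SNHG6 was also lower by a small amount, which made 9 of 10 past the test. Of all 15068 genes tested, 36.6% were lower in SP, 36.4% were higher and 10.6% were lower by at least 2-fold. GAS5 was 195, 191 and 181 CPM in SP, 6.47-fold lower than in Ab. SNHG5 was 22.3, 20.2 and 22.3 CPM, 5.84-fold lower, and ZFAS1 was 160, 148 and 155 CPM, 5.17-fold lower. SNHG1 was 47.9, 48.1 and 39.99 CPM, 4.67-fold lower, and SNHG12 was 18.2, 15.4 and 16.6 CPM, 4.62-fold lower. These 5 hosts were the same ones with the larger differences in NR, and none of their SP libraries overlapped an Ab library. SP lay below Ab without overlap for 8 of the 10 hosts and for 37.8% of all genes tested.

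In the 3 hosts with intermediate differences, SNHG15 was 58.4, 52.7 and 54.1 CPM in SP, EPB41L4A-AS1 was 24.6, 21.5 and 24.1 CPM, and SNHG8 was 23.2, 21.2 and 19.7 CPM. They were 2.83-fold, 2.90-fold and 2.50-fold lower than in Ab. SNHG6 was 57.2, 67.5 and 61.2 CPM in SP, and its highest SP library reached into the range of Ab. Its log2 fold change was -0.19 ± 0.07 (SE), 1.14-fold lower, with an edgeR adjusted p of 0.0123. The call was lost when SP library 1, SP library 3 or Ab library 3 was left out, at adjusted p-values of 0.0692, 0.056 and 0.0624. SNHG16 was 52.7, 50.2 and 47.8 CPM in SP, overlapping Ab, with a log2 fold change of -0.06, a 95% confidence interval of -0.18 to 0.07 and an adjusted p of 0.388. With length and GC trends removed it was -0.16 with an adjusted p of 0.0111. The median log2 fold change of the hosts was -1.87, against -0.01 for all genes tested.

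**Figure D2:**
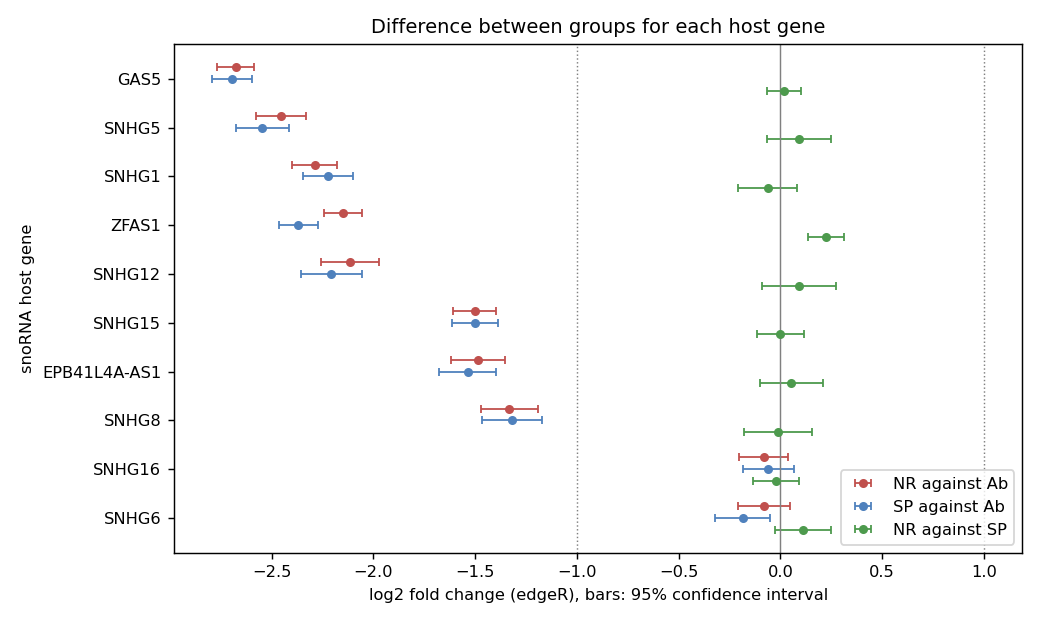
Log2 fold change of each host gene from edgeR (x axis), with 95% confidence intervals as bars, for NR against Ab (red), SP against Ab (blue) and NR against SP (green); dotted lines mark 2-fold. The 8 lower hosts lie left of the 2-fold line in both comparisons with Ab, from -1.32 to -2.69, and the NR against SP values lie between -0.06 and 0.22.

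The 2 kinds of particle were compared by setting NR against SP. Per the study, the rods and spheres also differed in supplier, core size and measured surface charge, so shape cannot be told apart from these. One host of 10, ZFAS1, differed, and none differed by 2-fold. Among the 14903 genes tested, 0.262% were higher in NR and 0.0201% by at least 2-fold. ZFAS1 was 1.17-fold higher in NR, at 188, 181 and 171 CPM against 160, 148 and 155 CPM, and the libraries of the groups did not overlap, which held for NR above SP in 8.99% of all genes tested. The log2 fold change was 0.22 ± 0.04 (SE), with an edgeR adjusted p of 0.0181. The call was lost without NR library 2 (adjusted p of 0.079) and without SP library 2 (adjusted p of 0.112). For the other 9 hosts the 95% confidence intervals ran from 0.866-fold at the lowest to 1.21-fold at the highest. Larger differences between the 2 particle groups lay outside the intervals. The narrowest of them was that of GAS5, 0.957-fold to 1.07-fold.

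Summed over the 10 hosts, the level was 700, 671 and 646 CPM in NR, 659, 635 and 622 CPM in SP, against 2819, 2884 and 2846 CPM in Ab. The hosts took between 0.0625% and 0.0704% of the counts of a nanoparticle library and between 0.277% and 0.286% of those of an Ab library. The makeup of the sum differed as well. GAS5 supplied 28.2% to 30.0% of it in the NR and SP libraries and 42.0% to 44.5% in the Ab libraries.

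Levels of different hosts were compared per kilobase of merged exons (RPKM). In Ab the order from the top was GAS5 at 249 ± 9.61 (SD, n = 3), ZFAS1 at 96.3 ± 3.21, SNHG1 at 53.6 ± 0.601, SNHG15 at 39.7 ± 0.926 and SNHG6 at 28.1 ± 1.40 RPKM. SNHG12 followed at 18.2 ± 1.13, EPB41L4A-AS1 at 15.9 ± 0.803, SNHG5 at 10.1 ± 0.351, SNHG16 at 9.11 ± 0.0924 and SNHG8 at 8.11 ± 0.201 RPKM. The ranges of neighbours in this order did not overlap. In NR, GAS5 at 38.9 ± 1.15 RPKM was followed by SNHG6 at 26.4 ± 2.40, ZFAS1 at 21.6 ± 1.08, SNHG15 at 13.97 ± 0.366 and SNHG1 at 10.9 ± 0.746 RPKM. SNHG16 at 8.58 ± 0.0779 RPKM stood sixth in NR and the ninth in Ab. SP had the same order of the 10 hosts as NR. These orders depend on the length used. With the length of the transcript tagged as canonical, a choice made after the annotation was seen, GAS5 remained first in all groups, SNHG16 moved to rank 2 in NR and 4 in Ab, and SNHG6 moved to rank 5 in NR and 8 in Ab.

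Because the counting is not stated to use strand, reads where a host overlaps a gene on the other strand cannot be told apart. The share of merged exon bases that another gene also covers was 58.9% in SNHG6, 54.3% in EPB41L4A-AS1, 38.6% in ZFAS1, 37.6% in SNHG8 and 28.5% in SNHG16. It was 13.2% in SNHG5, 9.06% in GAS5, 0.188% in SNHG12 and 0 in SNHG1 and SNHG15. The 4 lower hosts with little or no shared exon (GAS5, SNHG12, SNHG1 and SNHG15) were 2.83-fold to 6.40-fold lower in NR.

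The tested coding genes next to the hosts lie on the other strand, though reads in shared exons may come from either gene. ENSG00000271793, which overlaps SNHG5 on the same strand, had 0 counts in every library and was not tested. Of the tested neighbours, the 1 with the start nearest to that of each host is given, for 7 hosts. SLC3A2, which encodes the heavy chain of amino acid transporters and starts 51 bases from SNHG1, was 404, 398 and 425 CPM in NR and 979, 932 and 937 CPM in Ab. It was lower with its host, at a log2 fold change of -1.21 ± 0.04 in NR and -1.12 ± 0.05 in SP. ZNFX1, a helicase-domain gene that starts 248 bases from ZFAS1, was 111, 121 and 113 CPM in NR and 96.1, 89.7 and 88.1 CPM in Ab, and was higher, at 0.33 ± 0.05. EPB41L4A, which overlaps EPB41L4A-AS1, was 12.7, 14.4 and 12.03 CPM in NR and 4.32, 4.94 and 5.04 CPM in Ab, at 1.45 ± 0.13. ZNFX1 and EPB41L4A were thus higher where their hosts were lower.

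ZBTB37, which overlaps GAS5 on the other strand, was lower in NR at a log2 fold change of -0.70 ± 0.10, and TRNAU1AP at SNHG12 was higher at 0.36 ± 0.07. ST6GALNAC2, at SNHG16, was higher at 0.86 ± 0.26. MCMDC2, which shares exon bases with SNHG6, had 5 to 24 counts per library and a log2 fold change of -0.80 ± 0.38, with an edgeR adjusted p of 0.0596. In SP it passed the test, at -0.92 ± 0.39 and an adjusted p of 0.0381. MCMDC2 stood at 0.920 CPM or less in every library and SNHG6 at 57.2 CPM or more. In SP all 7 neighbours had the same sign as in NR.

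The snoRNAs themselves are short, lack a poly-A tail and are not the target of poly-A selection. Of the snoRNA genes in the hosts, 7 had an ID in the count tables that matched the annotation, and none had enough counts to be tested. Their counts lay between 0 and 11 per library. SNORD78 of GAS5 had 1, 1 and 3 counts in NR, 2, 1 and 2 in SP, against 9, 11 and 6 in Ab. By CPM, SNORD12B of ZFAS1 was also lower in NR than in Ab without overlap, while SP overlapped Ab. It had only 2, 2 and 4 counts in NR, 6, 4 and 8 in SP, against 8, 8 and 6 in Ab. SNORD12C of ZFAS1 was higher in NR without overlap, with 3, 2 and 1 counts in NR, 0 in every SP library, against 1, 0 and 0 in Ab. The other snoRNAs overlapped between NR and Ab. Such reads lie inside a host gene, so the mature snoRNA and unspliced host RNA cannot be told apart at these positions.

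Of 15 other non-coding hosts on a written list, 12 had enough counts, and SNHG32 was listed at 0 in every library. In NR, 8 of the 12 were lower and 4 were higher than in Ab, with a median log2 fold change of -0.76. SNHG17 at -1.73, SNHG3 at -1.28 and SNHG29 at -1.27 were the lowest. SNHG17 was 40.2, 37.9 and 38.4 CPM in NR and 140, 122 and 127 CPM in Ab. DANCR, a host with a known role in holding back differentiation, was higher at 1.11, with 25.3, 24.7 and 24.7 CPM in NR and 11.5, 11.8 and 11.2 CPM in Ab. SNHG14 at 0.47 was also higher. SNHG19, at 2.82, 2.01 and 3.05 CPM in NR and 2.55, 1.19 and 1.69 CPM in Ab, was at 0.59 with overlapping groups and an edgeR adjusted p of 0.0406. Its call was lost without NR library 1 or 3 or Ab library 2 or 3 (adjusted p-values of 0.0734 to 0.267), with all 9 libraries in one model (0.0724) and with DESeq2 (0.10). In SP, 8 were lower and 3 higher. For this list and those below, the shares over all genes tested in NR were 36.4% lower and 36.4% higher. In SP they were 36.6% lower and 36.4% higher.

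Protein-coding genes with snoRNAs in their introns went both ways, as did all genes tested, of which 36.4% were lower and 36.4% higher in NR. Of 25 tested, 14 were lower and 7 higher in NR, with a median log2 fold change of -0.21. This list shares EEF2, EEF1B2, RACK1 and TPT1 with that of the TOP messengers, NOP56 and DKC1 with that of the particle proteins and TAF1D with that of ribosomal RNA synthesis, so these genes count under both lists. TAF1D, a subunit of the RNA polymerase I selectivity factor, was at -1.16. PPAN, a ribosome biogenesis factor, was at -1.03, with a level of 0.869 to 3.95 CPM and 49.2% of its exons covered by other annotated genes. EIF4A1, the translation initiation helicase, was at -2.22, but its level was only 0.531 to 4.75 CPM and other annotated genes cover 47.4% of its exons. RACK1, a protein of the small ribosomal subunit, was higher at 0.60, HSPA8, a constitutive chaperone, at 0.56 and SLC25A3, the mitochondrial phosphate carrier, at 0.56. In SP, 14 were lower and 8 higher.

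Messengers with a known TOP tract, other than those of ribosomal proteins, were mostly higher. Of 19 tested, 13 were higher and 4 lower in NR, with a median log2 fold change of 0.24, and in SP 12 were higher and 5 lower. EIF4B at 0.89, EIF3L at 0.62 and RACK1 at 0.60, which encode proteins of translation initiation and the ribosome, were the highest. Other annotated genes cover 51.8% of the exons of EIF3L. TPT1 at -0.79, EEF1D at -0.53 and NAP1L1 at -0.23 were the lowest. EEF1G was listed at 0 in every library. This list and the 10 hosts therefore had medians of opposite sign.

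Among the 8 core proteins of snoRNA particles, 3 were higher and 5 lower in both NR and SP. Of the box C/D proteins, the methyltransferase gene FBL was higher at 0.51, and NOP56 at -0.86, NOP58 at -0.85 and SNU13 at -0.22 were lower in NR. Of the box H/ACA proteins, NHP2 at 1.49 and NOP10 at 0.52 were higher, and the pseudouridine synthase gene DKC1 at -0.67 and GAR1 at -0.42 were lower. NHP2 was 98.2, 95.6 and 97.2 CPM in NR and 35.05, 35.3 and 33.4 CPM in Ab. In each kind of particle, some proteins were thus higher and others lower, as among all genes tested, with 36.4% in each direction in NR.

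Of 15 factors of nonsense-mediated decay, 11 were lower and 1 was higher in NR, with a median log2 fold change of -0.46. SMG5, which takes part in dephosphorylating UPF1 and recruiting decay enzymes, was at -1.03. CASC3, a component of the exon junction complex, was at -0.90 and the UPF1 kinase SMG1 at -0.89, while EIF4A3, another component of that complex, was higher at 0.43. The central helicase gene UPF1 was at -0.10 and did not pass the test, but passed without Ab library 3 (-0.13, edgeR adjusted p of 0.040), with at least 10 counts in every library and with length and GC trends removed. In SP, 11 were lower and 1 higher. Of 12 genes of ribosomal RNA synthesis and its control, 9 were lower and 2 higher in NR. TAF1D at -1.16, TAF1C at -0.70 and RRN3 at -0.68 were the lowest, and the polymerase I subunits POLR1A at 0.18 and POLR1B at 0.11 were the 2 that were higher. Neither passed when NR library 2, NR library 3, Ab library 2 or Ab library 3 was left out (adjusted p-values of 0.0592 to 0.152) or with length and GC trends removed, and the groups overlapped for POLR1A. In SP 9 were lower and 3 higher.

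Genes of the integrated stress response, in which phosphorylation of an initiation factor lowers general translation while ATF4 is made, were lower without exception on this list. All 13 tested were lower by at least 2-fold in NR, and in SP all 13 were lower, 12 of them by at least 2-fold. Among all genes tested, 10.3% were lower by at least 2-fold in NR and 10.6% in SP. Over the 13 stress response genes the log2 fold change had a median of -2.31 in NR and -2.39 in SP. CHAC1 was 8.35, 9.39 and 8.48 CPM in NR and 188, 174 and 172 CPM in Ab, at -4.35. DDIT3 at -3.94 and SESN2 at -3.68 followed, and ATF4 itself was at -1.36. In NR against SP, no gene of these 7 lists passed the edgeR test, with an adjusted p of at most 0.05; at an unadjusted p under 0.05 they held 7 of 19 TOP messengers, 5 of 13 stress response genes, 3 of 8 particle proteins, 3 of 12 genes of ribosomal RNA synthesis, 3 of 25 coding hosts, 2 of 15 decay factors and 0 of 12 other non-coding hosts, against 12.9% of all genes tested. The 19 TOP messengers all had log2 fold changes above 0, from 0.02 to 0.17. With DESeq2, 3 genes passed: TPT1, which is on both the TOP and the coding host list, the TOP messenger NAP1L1 and the decay factor SMG1. In edgeR, ATF4, SLC7A11, SMG1 and TPT1 passed without SP library 3 or with no filter on low counts, POLR1A with no filter, SLC7A11 with the replicate block and NAP1L1 with length and GC trends removed.

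The genes whose pattern was most like that of the hosts were sought by Pearson's r over the 9 libraries, with the mean of the standardised log2 CPM of the 10 hosts as the profile. Among 14425 genes, the closest were TLX3 (r of 0.998), RRAGC (0.998), CCNL2 (0.998), MRPS25 (0.998) and NPEPL1 (0.997). CCNL2, a cyclin linked to splicing, was 83.9, 75.97 and 76.9 CPM in NR, 80.5, 77.8 and 69.8 CPM in SP, against 324, 295 and 302 CPM in Ab. RRAGC, a GTPase of amino acid signalling to mTORC1, was 2.11-fold lower in NR than in Ab. Since the 6 nanoparticle libraries lie at one level and the 3 Ab libraries at another, these values mostly express the difference between Ab and the others.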

How the data were processed

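RNA of SNU5 cells was measured in 9 libraries, 3 per group. The authors aligned reads with HISAT2 2.1.0, per the labels, and deposited whole read counts per Ensembl gene, not scaled between libraries. The genome is named hg19 in the study's reporting summary and mm9 in the submitters' processing notes, and the gene IDs are human. The annotation release, strand setting and sequencing batch are not given in the sources used here. The authors used DESeq2 1.16.1 for their own calls. Of 60880 IDs, 59858 were named by GENCODE 44 on GRCh37, and the other 1022 held at most 0.115% of a library. Groups were compared in pairs, with 6 libraries per fit, by edgeR 4.0.16 under R 4.3.3 (TMM scaling, filterByExpr with a minimum count of 10 and a total of 15, robust quasi-likelihood test, Benjamini-Hochberg adjustment over all genes tested). CPM values use TMM-scaled totals. The fit was tested on simulated data, but the outcome is not given here, so no conclusion is drawn from it. Counts of the libraries of a group differed by more than sampling noise (chi-square per gene of 1.84 to 7.43), so each library is 1 replicate. A count of 0 allows up to 3 counts, 0.114 to 0.216 CPM, for counting error only. The study's text calls the libraries of a group biological replications, and its reporting summary describes the in vitro work as independently repeated, without tying this to the libraries. The labels do not say whether libraries came from separate cultures, so p-values measure the spread between these libraries, part of which may be technical.

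The members and gene lists were chosen with earlier results of these data known. Named genes were all 10 members, all genes of a list of up to 8 tested, otherwise the 3 largest rises and the 3 largest falls in NR against Ab among those past the adjusted p, the tested neighbours (1 per host is given) and the 5 genes of closest pattern. The values of some single genes, and sums that rest on them, are left out. Others named (UPF1, ATF4 and markers among them) were chosen after seeing their values. Alternatives were DESeq2 1.42.0, RLE scaling, no filter, a floor of 10 counts per library, glmTreat at 2-fold, a fold of 1.5, a joint fit of all 9 libraries, blocking on replicate number, length and GC trends removed, raw library totals or canonical length for RPKM, and each library left out.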

Additional observations from a re-analysis of the deposited data

Results flagged for a closer look

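ZFAS1 was the only one of the 10 hosts whose difference from Ab was not the same in both nanoparticle groups by the direct test: NR was higher than SP by 0.22 on the log2 scale (edgeR adjusted p of 0.0181, 3 of 3 NR libraries above all SP libraries). DESeq2 gave 0.23 with an adjusted p of 0.00208. As given above, the call was lost without NR library 2 or SP library 2.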

How the results depend on the processing

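The 8 hosts called at 2-fold against Ab numbered 8 under every alternative run, in NR and in SP, with each library left out in turn as well. The number past the adjusted p was 8 to 9 in NR and 8 to 9 in SP when libraries were left out, and 9 in NR and 10 in SP with length and GC trends removed. In NR against SP, the number past the adjusted p was 0 to 1 when libraries were left out, with 0 without NR library 2 or SP library 2. Signs of small values in NR against SP turned. SNHG15 was 0.0004 in the fit reported, and -0.0009 with no filter, -0.001 with at least 10 counts in every library, -0.0029 with the replicate block, and -0.0134 with length and GC trends removed. SNHG8 was 0.0066 with those trends removed. With a library left out, SNHG15 ranged from -0.0298 to 0.047, SNHG8 from -0.0658 to 0.055, GAS5 from -0.0084 to 0.0446, SNHG16 from -0.0545 to 0.0166 and EPB41L4A-AS1 from -0.0038 to 0.0929. None of these passed the test, and the cause was not tested. Against 2-fold, SNHG6 in SP against Ab and ZFAS1 in NR against SP did not pass, since both are smaller.

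Libraries with the same number did not deviate together in the comparisons with Ab (correlations of their deviations from the group means near 0, -0.0317 and 0.0279 among them), so the number was not taken as a pairing. With the replicate block, 8 hosts passed in NR against Ab, 9 in SP against Ab and 1 in NR against SP, as without it. Of the list genes named in the report, POLR1B in NR against Ab lost its call with the block (adjusted p of 0.0673), and COL1A2 in NR against Ab (0.0398) and SLC7A11 in NR against SP gained one.

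The data are limited by 3 libraries per group, an unstated strand setting, exons shared with genes on the other strand, and an annotation release that is not given for the counting. Epithelial, fibroblast and endothelial marker sums were all higher in both nanoparticle groups than in Ab. The 2 nanoparticle groups share their Ab libraries, so they are not independent comparisons.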
